A study of Mus musculus with 4 samples.

Results

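The 8 genes *Cyp2e1*, *Adh1*, *Mgmt*, *Alkbh2*, *Alkbh3*, *Mpg*, *Msh6* and *Pms2*, which act in the activation of azoxymethane (AOM) or in the repair of the methylated bases it leaves in DNA, were followed in the mouse colon. They were chosen by name for their function, with earlier results of these data known, as a set of 8 among 22368 genes on the array, and 11 probes carried their names. The study asked how loss of *Pla2g3*, the gene of secreted phospholipase A2 group III, bears on colon carcinogenesis in the AOM model. RNA was pooled within 4 groups of male mice of the background B6.129 (n3), 42 weeks old, and each pool was hybridized to 1 one-color Agilent array. The groups were *Pla2g3*+/+ (WT) with vehicle, *Pla2g3*-/- (KO) with vehicle, WT with AOM and KO with AOM, and values for 4 arrays are given in this order. AOM was injected at 10 mg/kg once weekly over 6 weeks, the vehicle was saline, and every colon was collected 28 weeks after the final injection, so no level below is from the time of AOM exposure. After AOM the sample labels name the tissue colorectal cancer, whereas the study's own description is the whole descending colon for all groups, and the labels give 3 to 5 mice per pool. With 1 array per group no comparison has a replicate check, and no p-value is given.

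AOM is a procarcinogen. CYP2E1, a cytochrome P450 of the endoplasmic reticulum that is abundant in hepatocytes, hydroxylates it to methylazoxymethanol, and alcohol dehydrogenase can carry that product further toward a methylating species that attacks DNA. O6-methylguanine is reversed by MGMT, a suicide methyltransferase that takes the methyl group onto itself, N1-methyladenine and N3-methylcytosine are reversed by the dioxygenases ALKBH2 and ALKBH3, and N3-methyladenine and N7-methylguanine are cut out by the glycosylase MPG, which starts base excision repair. O6-methylguanine that pairs with thymine is recognized by a mismatch sensor that contains MSH6, and PMS2 takes part in the incision of mismatch repair that follows. The liver is the main site of the first step, so colon RNA reports on local expression alone.

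The probe sequences of *Cyp2e1* and *Adh1*, the members with the widest ranges, and of *Msh6* are shown first, since each level below is a signal from such a stretch. Each probe has 60 bases, and positions follow the mm9 build named by the array files, for which no exon or UTR annotation was used here. For the brighter or single probe of a gene, the last 30 bases are shown. The brighter *Cyp2e1* probe (chr7:147960628-147960687, + strand) and the dimmer one (chr7:147956922-147956981, + strand) start 3706 bases apart and gave different ratios in both comparisons that use the KO-labeled pool with AOM. The *Adh1* probe (chr3:137952821-137952880, + strand) gave the widest range of all members, and capitals mark a match to AATAAA, the letters of the common polyadenylation signal. The *Msh6* probe (chr17:88390143-88390202, + strand) is that of the member that was higher with AOM in both genotypes by scaled levels.
Cyp2e1 brighter probe: ttatcccttacaaaatgactgtttaaaaaa
Cyp2e1 dimmer probe: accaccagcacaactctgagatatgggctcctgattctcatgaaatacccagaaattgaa
Adh1 probe: tttacctttcgagaaAATAAAtgaagcatt
Msh6 probe: gaaaaaggtggtaaattcagacaacattat

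The promoters of these genes differed in base composition. Promoter windows of RefSeq (GRCm38.p6, 250 bases before and 50 after the start) were found for all 8 members, with 2 for *Mgmt*. Of the 9, 3 are shown, those of *Cyp2e1*, *Adh1* and *Msh6*. By the scaled levels used below, *Cyp2e1* and *Adh1* were the only members past 2-fold in a comparison. By those levels *Msh6* was the only member higher with AOM in both genotypes. Without scaling, *Mgmt*, *Alkbh3*, *Mpg* and *Pms2* were also higher with AOM in both. *Cyp2e1* (chr7:140763569-140763868, + strand) held 4 CpG and *Adh1* (chr3:138277335-138277634, + strand) held 6, whereas *Msh6* (chr17:87974800-87975099, + strand) held 37, against a median of 7 and quartiles of 3 and 20 over 32851 promoters. Among the other repair genes the count was 13 for *Alkbh2*, 18 for *Alkbh3*, 19 for *Pms2* and 22 for *Mpg*, and the 2 windows of *Mgmt* held 20 and 3. Capitals mark matches on either strand to motifs chosen after the sequences were seen. The TATA box letters TATAAA were found among the members only in *Cyp2e1* and in 13.6% of all promoters. The GC box letters GGGCGG, searched on both strands with neighboring matches running together, were found 5 times in *Msh6*, 4 times in the first window of *Mgmt*, 3 times in *Mpg*, 2 times in *Pms2*, once in *Alkbh2* and in 35.7% of all promoters. The E2F motif letters TTTCCCGC were found once in *Msh6* and in 1.07% of all promoters. These are matches of letters, and no binding was measured.
Cyp2e1 promoter: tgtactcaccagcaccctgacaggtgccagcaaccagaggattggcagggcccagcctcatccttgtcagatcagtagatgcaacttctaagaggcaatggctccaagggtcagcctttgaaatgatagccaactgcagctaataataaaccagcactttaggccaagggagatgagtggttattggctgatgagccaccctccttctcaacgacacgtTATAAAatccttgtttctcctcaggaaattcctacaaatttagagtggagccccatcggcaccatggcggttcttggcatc
Adh1 promoter: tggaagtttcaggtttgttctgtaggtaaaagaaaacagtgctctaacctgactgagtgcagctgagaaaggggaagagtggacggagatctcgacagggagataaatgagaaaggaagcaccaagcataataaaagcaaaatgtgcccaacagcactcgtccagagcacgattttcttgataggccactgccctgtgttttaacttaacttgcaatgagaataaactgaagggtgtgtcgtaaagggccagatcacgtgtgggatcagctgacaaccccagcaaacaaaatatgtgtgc
Msh6 promoter: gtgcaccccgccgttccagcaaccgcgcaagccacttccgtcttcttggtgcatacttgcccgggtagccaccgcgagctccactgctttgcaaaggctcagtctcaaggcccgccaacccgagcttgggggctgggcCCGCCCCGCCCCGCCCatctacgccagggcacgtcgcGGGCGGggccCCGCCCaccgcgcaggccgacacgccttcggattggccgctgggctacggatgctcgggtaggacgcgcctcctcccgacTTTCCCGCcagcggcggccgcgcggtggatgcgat

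The level of a probe is its signal divided by the 75th percentile of the signals on its array, on a linear scale, and a ratio of levels is given as a fold or on the log2 scale. All 11 member probes gave a signal well above background on every one of the 4 arrays, as did 64.8% to 69.4% of 43020 spots per array, and no spot was saturated. The median SD of repeated spots of a probe was between 0.058 and 0.067 on the log2 scale, which covers the array surface only and neither mice nor pools. The 75th percentile was 646 and 649.8 with vehicle and 1309 and 1169 with AOM, so scaling lowered the AOM over vehicle ratio of every gene by 1.02 in WT and by 0.85 in the KO-labeled pools on the log2 scale. All 8 epithelial and all 8 colonocyte markers were well above background on the 4 arrays, each labeled as colon. *Pla2g3* itself was not lower on the KO-labeled arrays. Its brightest probe had signals of 343, 426, 304 and 1632, and both dimmer probes were likewise higher on the KO-labeled arrays than on the WT ones of the same treatment. With vehicle the difference was small, 1.23-fold by the brightest probe and 1.06-fold by the next, and the third was below background in WT. With AOM the same probes were 6.01-fold, 6.66-fold and 2.76-fold higher. Where these probes lie relative to the deleted part was not settled here, so the KO arrays and pools are called KO-labeled throughout, and WT and genotype likewise stand for what the labels say.

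Of the 8 members, 1 lay past 2-fold in each of the 4 comparisons, each time *Cyp2e1* or *Adh1*. With vehicle, *Cyp2e1* was higher in the KO-labeled pool than in WT, where 3.24% of 16391 genes lay past 2-fold, 1.92% of them higher and 1.32% lower. With AOM, *Adh1* was higher in the KO-labeled pool, where 28.0% of 17194 genes lay past 2-fold, 15.1% higher and 12.9% lower. Between AOM and vehicle, *Adh1* was lower with AOM in WT (37.5% of 17277 genes past 2-fold, 15.1% higher and 22.4% lower) and *Cyp2e1* was lower with AOM in the KO-labeled pools (24.8% of 16514 genes past 2-fold, 9.65% higher and 15.1% lower). The share of 12.5% stands for 1 gene of 8 each time, so it does not describe the members as a set. It was above the background in the first comparison and below it in the other 3. The median log2 ratio of the members was -0.01, 0.11, -0.29 and -0.17 in this order, beside -0.01, 0.04, -0.16 and -0.10 over all genes. At a threshold of 1.5-fold the members past it were 1, 3, 3 and 3, beside 7.52%, 46.1%, 59.8% and 49.2% of all genes. Each array enters 2 of the comparisons, so they are not independent of one another.

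**Figure D1:**
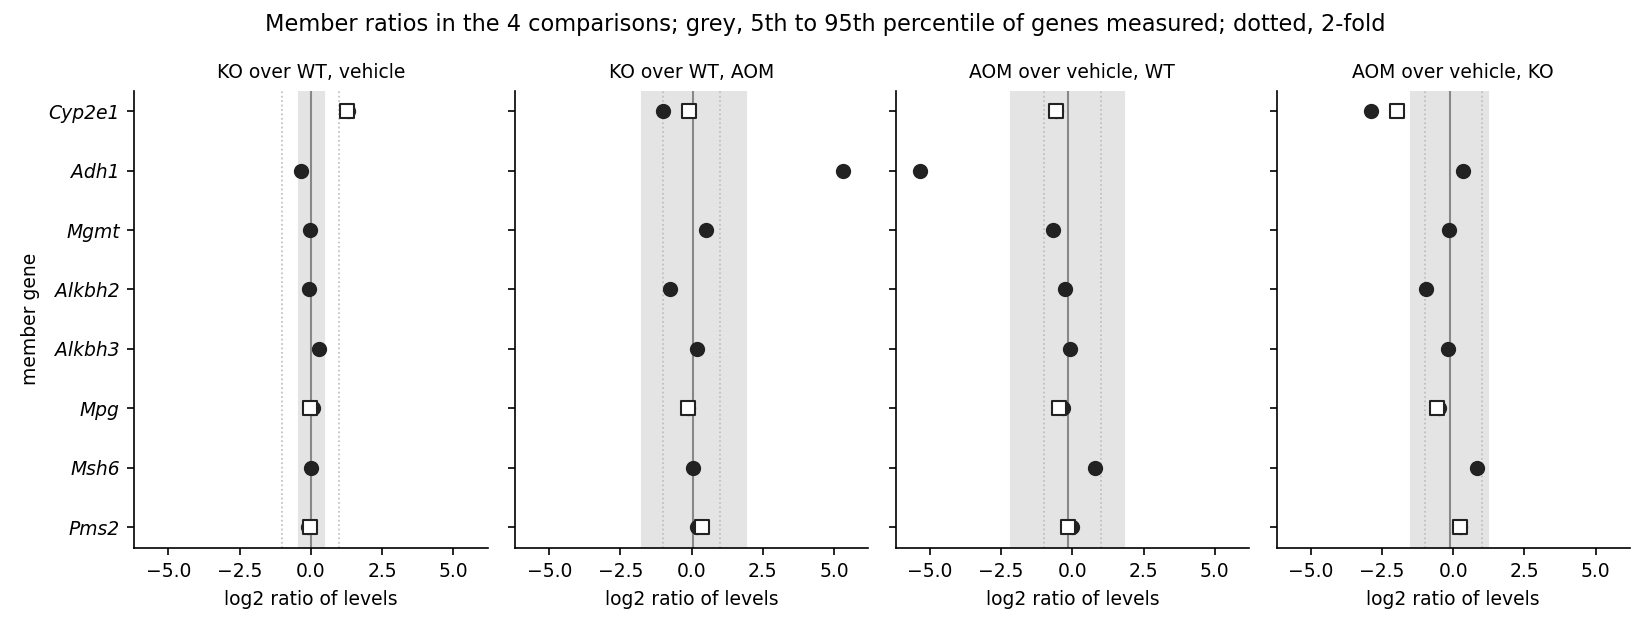
Log2 ratio of levels for each member (rows) in the 4 comparisons (panels), with filled circles for the brighter or single probe, open squares for the dimmer probe, grey bands that hold all but the outermost 5% on either side of the genes measured on both arrays, a line at their median and dotted lines at 2-fold. Only *Cyp2e1* and *Adh1* lie outside a band, *Adh1* at 5.33 and -5.34 in the middle panels and *Cyp2e1* at 1.32 and -2.89 in the outer ones.

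*Cyp2e1*, the P450 that starts AOM activation, was highest in the vehicle KO-labeled pool and lowest in the AOM pool with the same label. The signal of its brighter probe was 405 in WT and 1018 in the KO-labeled pool with vehicle, and 548.5 and 246 with AOM. The corresponding levels were 0.628, 1.57, 0.419 and 0.211. The order of the arrays was the same for the dimmer probe, with levels of 0.163, 0.392, 0.108 and 0.101, although the AOM pools differed there by only 0.10 on the log2 scale, beside 0.09 for the spread expected of a pair of single spots.

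With vehicle, the level of *Cyp2e1* in the KO-labeled pool was 2.49-fold that of WT by the brighter probe and 2.41-fold by the dimmer one. Of 15471 genes measured on both arrays, 97 had a larger ratio. With AOM the direction was the opposite, at -0.99 on the log2 scale by the brighter probe, but the dimmer probe gave -0.10. Between AOM and vehicle the log2 ratio was -0.58 and -0.59 by the 2 probes in WT, within 2-fold, and it turned to 0.44 for the brighter probe when the arrays were not scaled. In the KO-labeled pools it was -2.89, a level 7.44-fold lower with AOM, and 3.89-fold lower by the dimmer probe. Of 15163 genes measured on both of those arrays, 132 had a lower ratio than *Cyp2e1*.

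Between genotypes with vehicle, some markers of hepatocytes, adipocytes and pancreatic acinar cells were higher along with *Cyp2e1*, but not in every other comparison. In the vehicle KO-labeled pool, 5 of 8 hepatocyte markers lay past 2-fold above WT, among them *Alb*, the gene of albumin, with signals of 16.2 and 433, and *Ahsg*, the gene of fetuin A, at 13.1 (below background) and 414. *Ttr* and *Tat*, whose mean log2 levels over the 4 arrays were the highest of the list, had log2 ratios of -0.11 and 0.04 there, although *Alb* and *Ahsg* lay above *Tat* in the vehicle KO-labeled pool. The summed level of the 8 hepatocyte markers was 3.22, 4.67, 3.24 and 2.71 in the order of arrays above, although *Alb* also reached a signal of 2782 in WT with AOM, where *Ahsg* and *Fgb* were below background and *Cyp2e1* was not high. Of the 8, 6, 8, 5 and 4 were well above background.

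Adipocyte markers had a summed level of 18.7, 38.9, 2.29 and 5.60, which was 2.08-fold higher in the vehicle KO-labeled pool and 6.94-fold lower in the AOM pool with that label than in the vehicle pool. They include *Fabp4*, a fatty acid carrier, and *Cfd*, which encodes adipsin. All 8 pancreatic acinar markers were past 2-fold higher in the vehicle KO-labeled pool, with a summed level of 0.482, 8.96, 0.231 and 0.262, *Ctrb1* and *Cel* among them. Well above background were 8, 6, 4 and 6 of the 8 adipocyte markers and 7, 8, 3 and 4 of the 8 acinar ones. With AOM, where *Cyp2e1* was lower in the KO-labeled pool, 5 of 6 adipocyte markers with a value were past 2-fold higher there and none lower. Of 5 hepatocyte markers with a value, 4 were higher and 1 lower, beside 15.1% and 12.9% of all genes. In WT the adipocyte sum was 8.17-fold lower with AOM, where the log2 ratio of *Cyp2e1* was -0.58. Epithelial markers, *Krt8* and *Krt18* among them, summed to 529, 546, 359 and 494. The part of these cell types in the *Cyp2e1* values was not tested, and in pooled tissue fewer cells of a type and less RNA per cell cannot be told apart.

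*Adh1*, an alcohol dehydrogenase with a single probe here, had the widest range of all members. Its signal was 36746 in WT and 29279 in the KO-labeled pool with vehicle, 1844 in WT with AOM and 66275 in the AOM KO-labeled pool. The levels were 56.9, 45.1, 1.41 and 56.7, so that WT with AOM stood alone below the other 3 arrays, which lay close together.

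In WT the level of *Adh1* was 40.4-fold lower with AOM than with vehicle, and 58 of 15461 measured genes had a lower ratio. With AOM it was 40.3-fold higher in the KO-labeled pool than in WT, where 30 of 15484 genes had a larger ratio. These comparisons share the array of WT with AOM and so rest on the same low value. With vehicle the log2 ratio between the genotypes was -0.34, and in the KO-labeled pools the ratio of AOM over vehicle was 0.33. The latter passed 2-fold after quantile normalization (1.02), after normexp correction with quantile normalization (1.07) and without scaling (1.18).

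**Figure D2:**
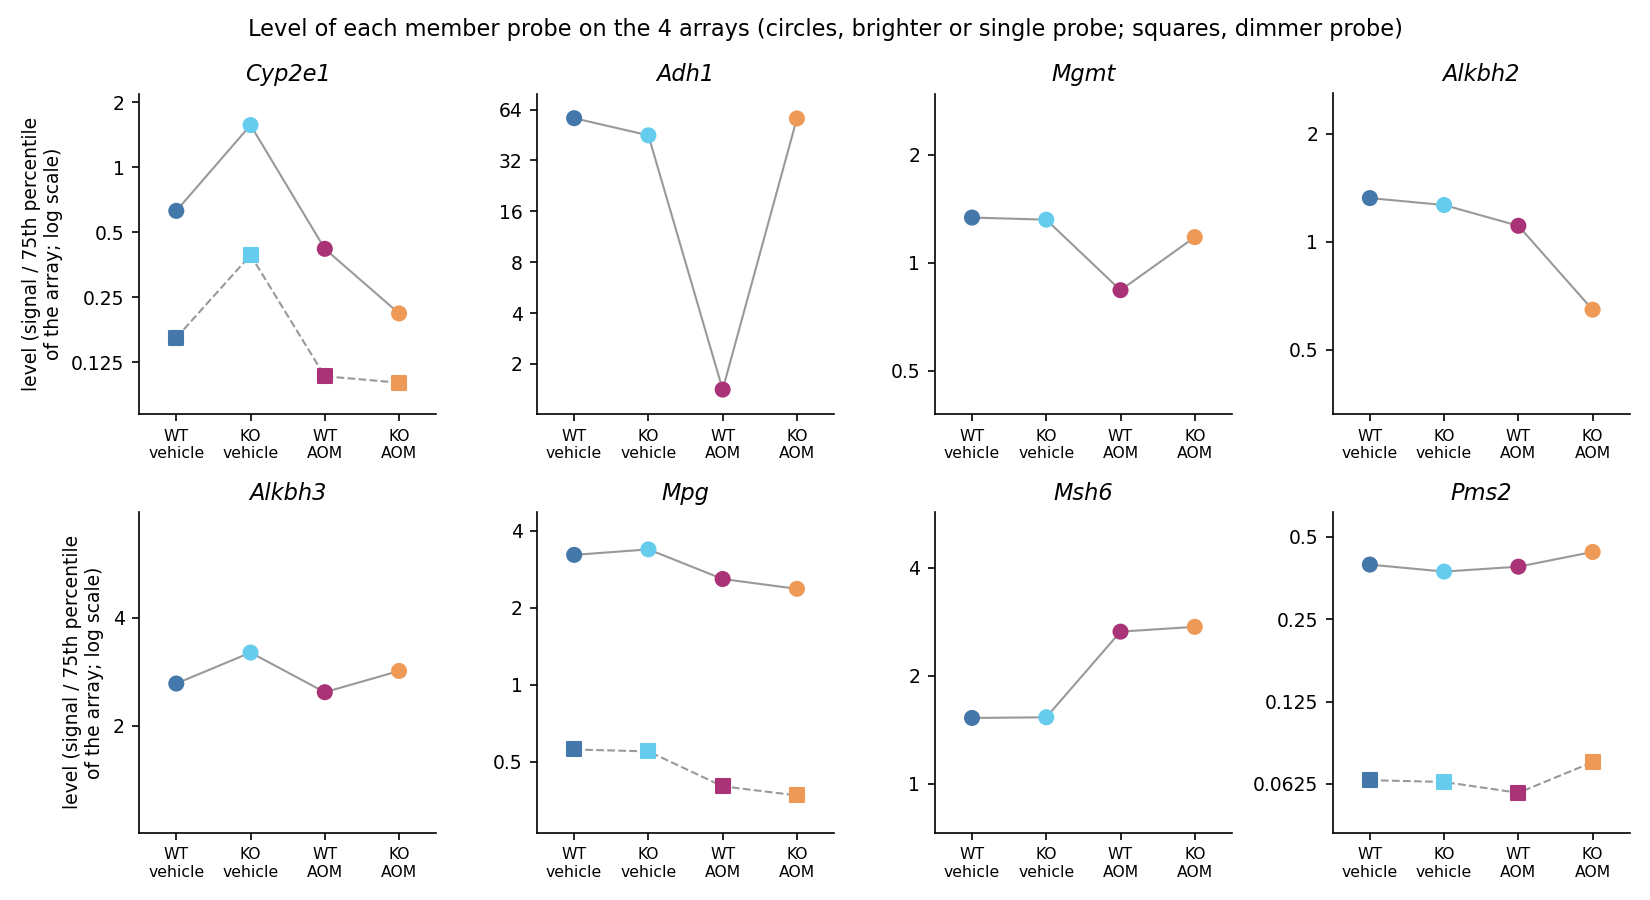
Level of each member probe on the 4 arrays (log scale, signal over the 75th percentile of the array), with circles for the brighter or single probe and squares for the dimmer probe; each point is 1 array. *Adh1* drops to 1.41 in WT with AOM alone, *Cyp2e1* runs from 1.57 to 0.211 between the KO-labeled pools, and *Msh6* is near 1.5 in both vehicle pools and at 2.65 and 2.74 in both AOM pools.

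Tissue markers fell together with *Adh1* on the array of WT with AOM. All 8 colonocyte markers, among them *Guca2a*, which encodes guanylin, and *Car1*, a carbonic anhydrase, were past 2-fold lower there than with vehicle, and their summed level was 849, 838, 63.3 and 423 over the 4 arrays. All 8 smooth muscle markers, *Tagln* and *Acta2* among them, were also lower, with sums of 515, 540, 31.2 and 496. The sum of epithelial markers was 1.47-fold lower on that array than with vehicle, and the level of *Adh1* relative to it still differed by -4.78 on the log2 scale. All 10 Wnt targets of colon tumors, *Notum* and *Ascl2* among them, were past 2-fold higher, with sums of 5.88, 5.55, 57.9 and 5.71. Myeloid markers, *Itgam* and *Csf1r* among them, summed to 32.0, 28.2, 69.0 and 26.4, and lymphoid markers, *Jchain* and *Cd4* among them, to 72.0, 69.7, 39.9 and 6.43. Of the 8 myeloid markers, 4 were past 2-fold higher and 1 lower with AOM in WT, beside 15.1% and 22.4% of all genes. The lower one was *Itgam*, at levels of 18.7 with vehicle and 5.95 with AOM, whereas *S100a8* and *S100a9* reached 10.0 and 35.7 with AOM. The part of these markers in the *Adh1* values was not tested.

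**Figure D3:**
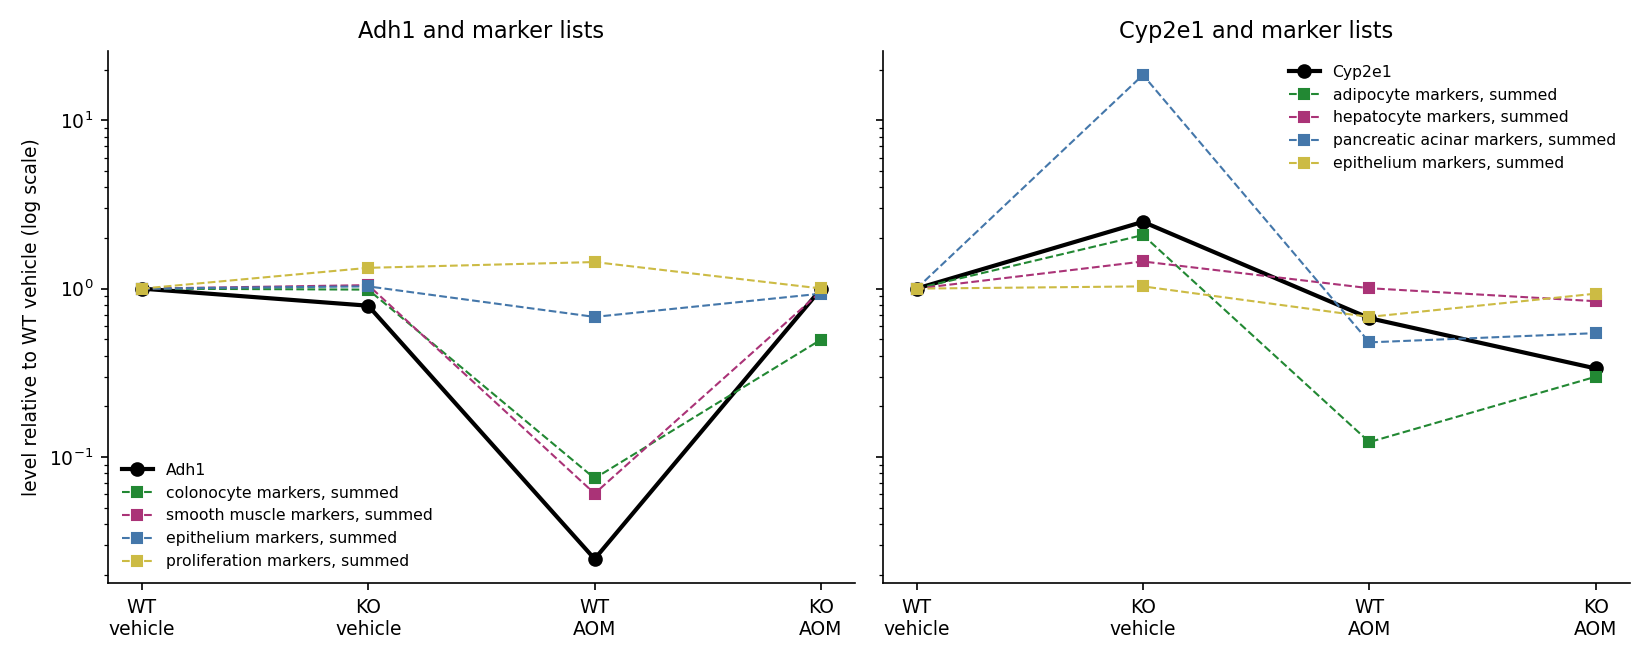
Level of *Adh1* (left) and *Cyp2e1* (right, brighter probe) on the 4 arrays beside the summed levels of marker lists, each relative to WT with vehicle on a log scale. The smooth muscle and colonocyte sums fall with *Adh1* in WT with AOM, and the adipocyte, hepatocyte and acinar sums rise with *Cyp2e1* in the vehicle KO-labeled pool, where the adipocyte sum is 2.08-fold higher.

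The genes with the profile most like that of *Adh1*, by root mean square distance of centred log2 levels over the 4 arrays among 14787 genes, were *Sult1c2*, a sulfotransferase (0.14), *Slc5a8*, a monocarboxylate transporter of the colonic epithelium (0.15), and *Scg2*, a secretogranin of neuroendocrine cells and neurons (0.16). Their levels in WT with vehicle and with AOM were 9.46 and 0.224, 1.94 and 0.0625, and 1.11 and 0.0236. For *Cyp2e1* they were *Ambp*, which encodes a plasma protein made by hepatocytes (0.14), *Crip3* (0.23) and *Lpl*, the lipoprotein lipase of fat and muscle (0.24). *Ambp* had levels of 0.481, 1.05, 0.242 and 0.139 over the 4 arrays. Within a distance of 0.25 lay 10 genes for *Adh1* and 4 for *Cyp2e1*, whereas 1238 lay that near to *Alkbh2*, the member with the third widest range. The distance is not scaled by the range of a gene, so these counts depend on the range and cannot compare how distinctive the profiles are. The nearest to *Alkbh2* were *Slc7a6os*, *9230110K08Rik* and *Srprb*, at 0.01 to 0.02.

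Of 15 other P450, alcohol dehydrogenase and aldehyde clearance genes on the array, 12 had a value in the comparison of genotypes with AOM, and 3 were past 2-fold higher and 1 lower in the KO-labeled pool. This share of 33.3% was near the 28.0% of all genes. *Cyp2f2*, a P450 best known from airway club cells, had signals of 780.1, 638, 48.8 and 11331, which made it 260-fold higher in the KO-labeled pool with AOM. *Cyp2s1*, an epithelial P450, had signals of 9390.1, 9693.5, 1835 and 33052 and was 20.2-fold higher there. Both were lower with AOM in WT, by 32.4-fold and 10.4-fold, as was *Adh1*. After normexp correction with quantile normalization the log2 ratio of *Cyp2f2* was 5.94 between genotypes with AOM, in place of 8.02, and -2.95 with AOM in WT, in place of -5.02.

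*Cyp2b10*, a P450 induced through the receptor CAR, went the other way. It was below background with vehicle and had signals of 4275 in WT and 371 in the KO-labeled pool with AOM, at least 197-fold and at least 13.9-fold above vehicle. These bounds set the AOM array against the lowest signal well above background on the vehicle array, and normexp correction with quantile normalization gave only 4.64 and 1.71 on the log2 scale, in place of 7.62 and 3.80. *Adh6a* was 2.31-fold higher with AOM in WT, and *Adh5*, the formaldehyde-clearing alcohol dehydrogenase, was 2.24-fold lower with AOM in the KO-labeled pools, but under the same alternative these were 0.61 and -0.37 on the log2 scale, within 2-fold. The median log2 ratio of the list was 0.11 and 0.20 between genotypes with vehicle and with AOM, and -0.73 and -0.52 for AOM over vehicle in WT and the KO-labeled pools. With vehicle none of 10 genes with a value lay past 2-fold between genotypes, beside 3.24% of all genes. For AOM over vehicle, 2 were higher and 4 lower of 11 in WT, and 3 were higher and 1 lower of 12 in the KO-labeled pools, shares of 54.5% and 33.3% beside 37.5% and 24.8% of all genes.

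*Mgmt*, the methyltransferase of O6-methylguanine, stayed within 2-fold in all 4 comparisons. Its single probe (chr7:144319790-144319849, + strand) had signals of 863.5 and 857.5 with vehicle and 1098 and 1378.5 with AOM, in WT and the KO-labeled pool respectively. The levels were 1.34, 1.32, 0.839 and 1.18, lowest in WT with AOM. The log2 ratio of AOM over vehicle was -0.67 in WT and -0.16 in the KO-labeled pools. Without scaling these turned to 0.35 and 0.68. The genotype ratio of *Mgmt* was -0.02 with vehicle and 0.49 with AOM on the log2 scale. On the log2 scale, the AOM over vehicle ratio of *Mgmt* was -0.11 and -0.02 relative to the sum of epithelial markers, and -1.20 and 0.25 relative to that of proliferation markers.

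*Alkbh2*, the nuclear dioxygenase that acts on double-stranded DNA, was lowest in the AOM KO-labeled pool. Its probe (chr5:114573947-114574006, - strand) gave levels of 1.32, 1.27, 1.11 and 0.646, so the first 3 arrays lay near one another. The log2 ratio of the KO-labeled pool over WT with AOM was -0.78, and that of AOM over vehicle in the KO-labeled pools was -0.97, just within 2-fold. These ratios were -0.94 and -0.12 without scaling. The signal in the KO-labeled pools was 822 with vehicle and 755 with AOM, so the near 2-fold drop between treatments depended on the scaling. *Alkbh3*, which prefers single-stranded DNA, had levels of 2.62, 3.20, 2.48 and 2.84 (chr2:93820827-93820886, - strand), with a highest over lowest ratio of 1.29.

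Of 10 other AlkB homologs and partners, all measured, none lay past 2-fold between genotypes with vehicle, beside 3.24% of all genes. With AOM, 1 was higher in the KO-labeled pool and none lower, a share of 10% beside 28.0% of all genes. That gene was *Alkbh7*, a mitochondrial homolog, at 2.10-fold. It was 4.03-fold lower with AOM in WT and 2.11-fold lower in the KO-labeled pools, by its brighter probe, with the dimmer one in the same directions. After normexp correction with quantile normalization its ratios were 0.97 between genotypes with AOM and -0.73 in the KO-labeled pools on the log2 scale, within 2-fold. *Ascc3*, a helicase that works with ALKBH3, was 2.14-fold and 2.37-fold higher with AOM in the same order, although its dimmer probe gave 0.40 on the log2 scale in the KO-labeled pools. The median log2 ratio of the list was -0.10 and 0.03 between genotypes, and 0.04 and 0.02 for AOM over vehicle.

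*Mpg*, the glycosylase that removes N3-methyladenine and N7-methylguanine, had a narrow range that both of its probes shared. The brighter probe (chr11:32131904-32131963, + strand) gave levels of 3.22, 3.38, 2.59 and 2.37, and the dimmer one (chr11:32127889-32127948, + strand) 0.558, 0.548, 0.401 and 0.369. Both AOM pools lay below both vehicle pools by either probe, with log2 ratios of -0.31 and -0.51 by the brighter one in WT and the KO-labeled pools. Without scaling these turned to 0.71 and 0.33.

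Of 24 other base excision repair genes, all measured, 6 were past 2-fold higher and none lower with AOM in WT, where 15.1% of all genes were higher and 22.4% lower. In the KO-labeled pools, 1 was higher and 2 lower, beside 9.65% and 15.1% of all genes. Between genotypes with AOM, 3 were lower, a share of 12.5% beside 12.9% of all genes, and none higher, beside 15.1%. *Apex1*, the main abasic site endonuclease, had signals of 1259, 1459, 7534 and 2498, 2.95-fold higher with AOM in WT and 2.69-fold lower in the KO-labeled pool with AOM. *Apex2* was higher with AOM in both genotypes, 3.32-fold and 2.09-fold. *Polb*, the gap-filling polymerase, was 2.22-fold lower in the KO-labeled pool with AOM and 2.03-fold lower with AOM than with vehicle under that label. *Nthl1*, a glycosylase for oxidized bases, was 2.50-fold lower with AOM under that label. With vehicle 1 of 24 lay past 2-fold between genotypes, a share of 4.17% beside 3.24% of all genes. It was *Mbd4*, a thymine glycosylase, with signals of 92.8 and 22.9, 4.09-fold lower in the KO-labeled pool. After normexp correction with quantile normalization that ratio was -0.80 on the log2 scale. The same alternative brought *Apex2* to 0.90 in WT and 0.52 in the KO-labeled pools, *Nthl1* to -0.75, and *Polb* to -0.89 between genotypes and -0.81 between treatments, all within 2-fold. The median log2 ratio of the list was 0.12 and -0.34 between genotypes with vehicle and with AOM, and 0.26 and -0.09 for AOM over vehicle.

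*Msh6*, the mismatch sensor subunit, was higher in both AOM pools than in both vehicle pools. Its signal was 984 and 994 with vehicle and 3471 and 3197 with AOM, and its levels were 1.52, 1.53, 2.65 and 2.74. Within a treatment the genotypes were almost equal, with log2 ratios of 0.01 and 0.04. AOM over vehicle was 1.74-fold in WT and 1.79-fold in the KO-labeled pools, within 2-fold, and 2772 of 15461 and 1852 of 15163 genes had larger ratios. Relative to the median of all genes these ratios were 0.96 and 0.94 on the log2 scale. Without scaling they were 1.82 and 1.68, past 2-fold. Proliferation markers, *Birc5* and *Mcm6* among them, summed to 38.3, 51.0, 55.2 and 38.4, so their sum was not high in the AOM KO-labeled pool. Single markers differed, since 11 of 15 with a value were lower and 4 higher with AOM in the KO-labeled pools. *Mki67* was highest in the AOM KO-labeled pool, with levels of 2.89, 4.33, 7.91 and 8.63. Relative to that sum, *Msh6* had AOM over vehicle ratios of 0.27 and 1.25 on the log2 scale, and relative to the epithelial sum 1.36 and 0.98.

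*Pms2*, an endonuclease subunit of mismatch repair, had the narrowest range among the members by its brighter probe. That probe (chr5:144692034-144692093, + strand) gave levels of 0.396, 0.373, 0.389 and 0.441, a highest over lowest ratio of 1.18. Its dimmer probe (chr5:144689834-144689893, + strand) gave 0.0645, 0.0635, 0.0580 and 0.0751, a ratio of 1.29. Both were highest in the AOM KO-labeled pool, within 2-fold.

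Of the 8 other mismatch repair genes, 1 was past 2-fold higher and 1 lower with AOM in WT, a share of 25% beside 37.5% of all genes. *Exo1*, the exonuclease of mismatch repair, was 2.18-fold higher in WT and 2.70-fold lower in the KO-labeled pool with AOM than in WT. *Msh5*, known for meiotic recombination, was 2.95-fold lower with AOM in WT and 3.38-fold lower in the KO-labeled pools, by the brighter of its 2 probes. After normexp correction with quantile normalization, AOM over vehicle was 0.83 for *Exo1* in WT, and -0.53 and -0.70 for *Msh5* in both genotypes, on the log2 scale, within 2-fold. The mean of both *Msh5* probes gave -0.06 in the KO-labeled pools. The median log2 ratio of the list was 0.17 and 0.00 between genotypes with vehicle and with AOM, and 0.29 and 0.18 for AOM over vehicle.

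Among checkpoint, bypass and recombination genes, 8 of 20 with a value were past 2-fold higher with AOM in WT and none lower, beside 15.1% of all genes higher. In the KO-labeled pools, 2 of 19 were higher, beside 9.65%. *Fancd2*, of the crosslink repair pathway, was at least 3.36-fold and *Clspn*, which encodes claspin of the ATR checkpoint, 2.97-fold higher in WT. *Polk* and *Rev3l*, polymerases of lesion bypass, were 2.14-fold and 2.05-fold higher in the KO-labeled pools, although a dimmer *Polk* probe gave 0.91 on the log2 scale. After normexp correction with quantile normalization all 4 ratios were within 2-fold, at 0.30 for *Fancd2*, 0.41 for *Clspn*, 0.58 for *Polk* and 0.96 for *Rev3l* on the log2 scale. Between genotypes none lay past 2-fold with vehicle or with AOM, beside 3.24% and 28.0% of all genes. The median log2 ratio was 0.04 with vehicle and -0.37 with AOM. For AOM over vehicle the median was 0.77 and 0.31.

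**Figure D4:**
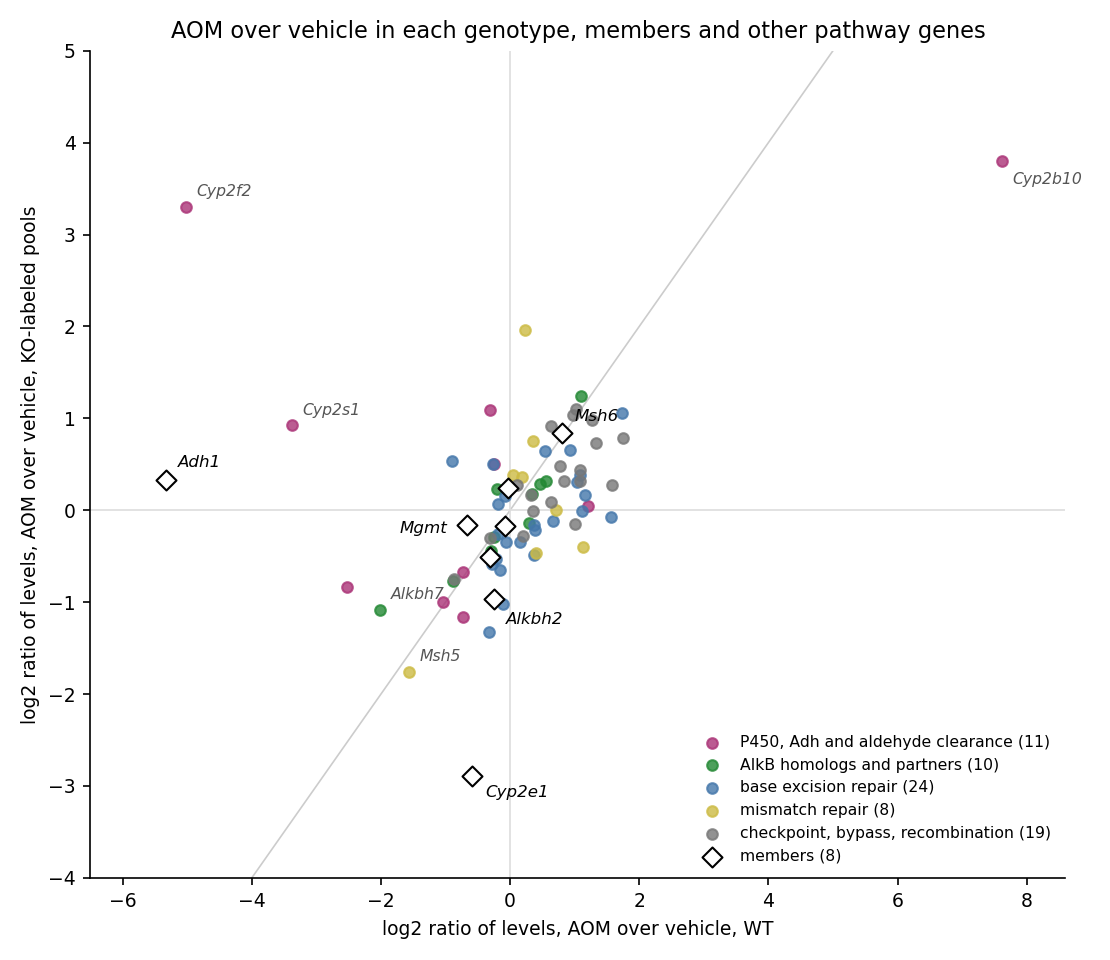
Log2 ratio of AOM over vehicle in WT (horizontal) and in the KO-labeled pools (vertical) for the 8 members (diamonds) and 72 other pathway genes with a value in both (dots, colored by list), with the line of equal ratios; genes below background on 1 array of a pair, *Cyp2b10* among them, are plotted at their bounds. *Adh1* lies far left at -5.34 and close to 0 on the vertical axis, *Cyp2e1* far below at -2.89, and *Msh6* near the line at 0.80 and 0.84.

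Over all 5 lists, 77 of 79 other pathway genes were on the array. With AOM in WT, 18 were past 2-fold higher and 6 lower of 73 with a value, a share of 32.9% beside the background of 37.5%. In the KO-labeled pools, 8 were higher and 5 lower of 73, a share of 17.8% beside 24.8%. Between genotypes the share was 2.82% with vehicle and 12.2% with AOM, beside 3.24% and 28.0% of all genes. With AOM, 4 were higher and 5 lower of 74 in the KO-labeled pool. The sign of an AOM over vehicle ratio within 2-fold can depend on the scaling. Without it 6 of the 8 members change sign in WT and 3 in the KO-labeled pools. Among the former are *Cyp2e1* and *Mgmt*, at -0.58 and -0.67 with scaling, so this is not limited to ratios near 0. Without scaling, the lower calls with AOM of *Alkbh7* and *Msh5* in both genotypes, and of *Adh5*, *Nthl1* and *Polb* in the KO-labeled pools, also lay within 2-fold.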

How the data were processed

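RNA pooled from the colons of 3 to 5 mice per group was hybridized to 4 one-color arrays, 1 per group, and groups were taken from the sample labels. The authors deposited the spot intensity from Agilent Feature Extraction 11.5.1.1, whose background was subtracted by that software per the file headers, with no scaling between arrays. The table of processed values that the authors deposited is a ratio, each intensity over the 75th percentile of its array, and was used as an alternative. Here, control spots and flagged outliers were left out, log2 intensities of repeated spots were averaged and the 75th percentile of each array was subtracted. Of 39429 probes, 31372 were named through RefSeq (GRCm38.p6). Each gene was given the values of its brightest probe. Where 1 array of a pair was not well above background, that side entered as a bound, at the lowest signal that the array measured above background. A difference past 2-fold is counted without a test, since the number of arrays limits the precision. The ratio step was tested on simulated data. Feature Extraction gave an error of 10% to 14.0% for the member spots. The members and gene lists were chosen with earlier results of these data known. Named genes were all members, the 2 largest rises and falls past 2-fold of each other pathway list per comparison, the 2 genes of highest mean log2 level over the 4 arrays of each marker list, and the 3 nearest profiles of the 3 members with the widest range. Alternatives were no scaling, the median in place of the percentile, quantile normalization, normexp with an offset of 50 and quantile normalization (limma 3.58.1, R 4.3.3), 2 filters on dim probes, the mean over probes, the dimmest probe, the deposited table and a threshold of 1.5-fold. Other steps used Python 3.11.15 with pandas 2.3.3 and numpy 2.4.6. Some genes of the mismatch repair list are not reported here.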

Additional observations from a re-analysis of the deposited data

Results flagged for a closer look

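Some ratios of single arrays pointed in opposite directions in the groups compared, and none of these differences was tested, since each group is 1 array. The log2 ratio of the KO-labeled pool over WT was 1.32 with vehicle and -0.99 with AOM for *Cyp2e1*, -0.34 and 5.33 for *Adh1*, and -0.30 and 8.02 for *Cyp2f2*. The log2 ratio of AOM over vehicle was -5.34 in WT and 0.33 in the KO-labeled pools for *Adh1*, -5.02 and 3.30 for *Cyp2f2*, and -3.38 and 0.92 for *Cyp2s1*.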

How the results depend on the processing

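No paired analysis was possible because each group is 1 array, and for the same reason no replicate could be left out. Under all 9 alternatives of the values, the ratio of *Cyp2e1* between genotypes with vehicle lay past 2-fold (1.12 to 1.37 on the log2 scale). The same held for *Cyp2e1* in the KO-labeled pools (-2.90 to -1.96), *Adh1* with AOM (5.17 to 5.59) and *Adh1* in WT (-5.36 to -4.32). Not all alternatives could change these calls. The 2 filters on dim probes leave both genes as they are, and the deposited table carries the same scaling. For the single *Adh1* probe, the mean over probes and the dimmest probe also repeat the main value. Without scaling, 1 member was lower between genotypes with AOM (0 before), 1 was higher with AOM in WT (0 before) and 3 in the KO-labeled pools (0 before). Of the other pathway genes, 9 were then lower between genotypes with AOM (5 before), 44 higher and 3 lower with AOM in WT (18 and 6 before), and 36 higher and 0 lower in the KO-labeled pools (8 and 5 before). The arrays without scaling had a median over all genes shifted by 1.02 and 0.85 in these comparisons. With quantile normalization, 1 member was higher with AOM in the KO-labeled pools, as with normexp and quantile normalization. The latter left 1 pathway gene lower between genotypes with vehicle (2 before), 7 higher in WT, and 5 higher and 0 lower in the KO-labeled pools. Without a filter on dim probes, 2 pathway genes were higher and 4 lower between genotypes with vehicle (0 and 2 before). At 1.5-fold, 2 members were lower between genotypes with AOM, 1 was higher and 2 lower with AOM in WT, and 1 higher and 2 lower in the KO-labeled pools. Of the pathway genes, 8 were then higher and 16 lower between genotypes with AOM (4 and 5 before), 12 lower in WT, and 16 higher and 12 lower in the KO-labeled pools. Apart from the scaling and the threshold themselves, the cause was not tested. Signal over background limited the dim genes, and no member was among them.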
